A study of Mus musculus with 24 samples.

Results

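The lower part of glycolysis, from aldolase to pyruvate kinase, was described through 10 gene symbols of the 24421 rows of the count table: the aldolases Aldoa and Aldoc, the triose phosphate isomerase Tpi1, the triose phosphate dehydrogenase Gapdh, the phosphoglycerate kinase Pgk1, the phosphoglycerate mutase Pgam1, the enolases Eno1, Eno1b and Eno2, and the pyruvate kinase Pkm. The members were taken by name, 1 or more for each step of the pathway, with earlier results of these data known. Eno1 and Eno1b are near copies and were counted as 1 result under the Eno1 row, which leaves 9 results. Of the 10 symbols, 9 passed the filter on low counts, giving 8 tested results, and Eno2 did not pass. RNA was measured in 3 B cell populations of mouse bone marrow, named proBpreB (a joint sort of pro-B and pre-B cells), Immature and Mature in the labels. All 8 mice were Mb1-Cre +/WT, so that both genotypes carried the recombinase, which is driven by the B lineage gene Mb1 (Cd79a) and so acts in B lineage cells. In 4 mice both Vhl alleles were floxed (Vhl flox/flox) and in the other 4 mice 1 allele was floxed and 1 was wild type (Vhl flox/WT, the control). Each mouse gave 1 library per population, 24 libraries in 6 groups of 4, and the labels give neither the age of the mice nor the surface markers of the gates. The design asks how the enzymes differ between the genotypes in each population, between the populations in each genotype, and whether the genotype effect differs between populations.

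As background, glycolysis splits a sugar phosphate into triose phosphates at aldolase, oxidises them at Gapdh and recovers ATP at Pgk1 and Pkm. The subunit encoded by Vhl belongs to a ubiquitin ligase that marks the oxygen-regulated alpha subunits of hypoxia-inducible factor (HIF) for destruction, and genes of glycolysis are among the best known HIF targets. HIF binds a hypoxia response element whose core reads ACGTG or GCGTG. Resting B cells use little glucose, and dividing B cell precursors and activated B cells use more.

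Promoter sequences of 9 of the 10 members matched RefSeq's table (GRCm38.p6), with 15 windows of 300 bases that run from 250 bases before to 50 bases after a start site. Both cores of the hypoxia response element were searched on both strands, and a match on the other strand is printed as its reverse complement. The first core was found in 19.6% and the second in 32.4% of 32851 promoter windows of that length, and either core in 43.8% of them. Either core was found in 11 of the 15 member windows, which belonged to 7 of the 9 members, against 46.7% of 27025 genes. The palindrome CACGTG, in which both strands read ACGTG and which is also the E box bound by Myc, was found in 0 of the 15 windows. The windows below belong to the members with the largest, some intermediate and the smallest changes between genotypes in proBpreB cells, and capitals mark the core matches. Windows of Eno1 and Pkm, whose changes there were also intermediate, are not shown. For Aldoa a window with a match was taken. Aldoc (chr11:78322823-78323122, plus strand) held 1 ACGTG and 2 GCGTG, Pgk1 (chrX:106186850-106187149, plus strand) 2 ACGTG, and Aldoa (chr7:126799205-126799504, minus strand) 1 ACGTG. Pgam1 (chr19:41911621-41911920, plus strand) and Gapdh (chr6:125165724-125166023, minus strand) each held 1 ACGTG and 2 GCGTG. The Tpi1 window (chr6:124814109-124814408, minus strand) held 0 of either core, as did the Eno2 window. Each is written 5′ to 3′ on the strand of its gene.
Aldoc: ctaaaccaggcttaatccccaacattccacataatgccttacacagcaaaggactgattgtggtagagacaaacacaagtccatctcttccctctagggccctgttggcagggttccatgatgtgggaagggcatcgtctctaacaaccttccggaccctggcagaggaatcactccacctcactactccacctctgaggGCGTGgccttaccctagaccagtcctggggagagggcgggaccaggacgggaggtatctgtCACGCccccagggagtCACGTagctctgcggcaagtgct
Tpi1: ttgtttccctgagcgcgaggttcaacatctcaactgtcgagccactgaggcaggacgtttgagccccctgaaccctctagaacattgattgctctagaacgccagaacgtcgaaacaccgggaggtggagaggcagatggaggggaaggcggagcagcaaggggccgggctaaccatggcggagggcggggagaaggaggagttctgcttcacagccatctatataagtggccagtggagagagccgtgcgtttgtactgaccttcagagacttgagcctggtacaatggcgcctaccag
Pgk1: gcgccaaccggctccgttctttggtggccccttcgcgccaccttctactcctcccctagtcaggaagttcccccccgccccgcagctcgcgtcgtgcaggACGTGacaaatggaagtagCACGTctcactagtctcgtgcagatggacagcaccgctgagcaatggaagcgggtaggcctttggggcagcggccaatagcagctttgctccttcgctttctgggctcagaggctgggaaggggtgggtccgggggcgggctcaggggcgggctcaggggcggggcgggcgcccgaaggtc
Aldoa: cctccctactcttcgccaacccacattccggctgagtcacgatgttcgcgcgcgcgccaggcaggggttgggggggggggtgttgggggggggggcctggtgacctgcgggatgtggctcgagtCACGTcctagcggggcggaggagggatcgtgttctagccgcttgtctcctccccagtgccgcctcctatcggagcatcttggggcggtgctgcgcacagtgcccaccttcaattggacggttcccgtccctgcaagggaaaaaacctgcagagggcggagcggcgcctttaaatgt
Pgam1: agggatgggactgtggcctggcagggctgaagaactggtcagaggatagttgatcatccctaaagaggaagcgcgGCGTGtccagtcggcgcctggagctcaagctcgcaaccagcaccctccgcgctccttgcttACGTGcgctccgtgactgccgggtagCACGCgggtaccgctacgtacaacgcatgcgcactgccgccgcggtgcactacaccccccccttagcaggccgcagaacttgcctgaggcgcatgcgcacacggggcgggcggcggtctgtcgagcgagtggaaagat
Gapdh: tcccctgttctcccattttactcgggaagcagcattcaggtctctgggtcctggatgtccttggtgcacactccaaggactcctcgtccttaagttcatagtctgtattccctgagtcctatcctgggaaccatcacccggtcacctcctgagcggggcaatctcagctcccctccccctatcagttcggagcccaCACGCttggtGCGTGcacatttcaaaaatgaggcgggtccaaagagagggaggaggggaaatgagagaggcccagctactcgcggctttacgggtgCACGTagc
Second windows differed within a gene. The other Aldoc window held 1 GCGTG, 1 of the 3 Aldoa windows and 1 of the 2 Pkm windows held 0 of either core, and the second Pkm window held 2 ACGTG. All 3 Eno1 windows, of which the last 2 overlap, held 2 GCGTG each. The Aldoa windows with a match also overlap and share the same ACGTG. The number of member windows with a match therefore counts some sites more than once. A match is a description of letters in the window and was not tested as a binding site.

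Library totals ran from 7850186 to 11863949 counts. Vhl itself stood in flox/flox libraries at 40.1%, 15.7% and 26.1% of the flox/WT mean in proBpreB, Immature and Mature cells (two-sided exact permutation p = 0.0286 in each, the smallest that 4 against 4 libraries can give). B lineage markers were measured in every library, in CPM (counts scaled to library size with edgeR's TMM factors). They summed to 4729 to 5712 CPM in flox/WT and 3020 to 3422 CPM in flox/flox proBpreB libraries. Neutrophil and monocyte markers summed to 4388 to 6455 and 4611 to 5785 CPM in the same libraries. In Immature libraries B lineage markers summed to 26613.1 to 31043.7 CPM in flox/WT and 23228.6 to 28406.5 CPM in flox/flox. In Mature libraries they summed to 39834.9 to 55119.3 CPM in flox/WT and 29017.8 to 35729.4 CPM in flox/flox. Pro-B and pre-B markers summed to 2349 to 3823 CPM in proBpreB and 148 to 252 CPM in Mature flox/WT libraries. Mature B cell markers summed to 947 to 1256 CPM in the first and 15714.5 to 18111.5 CPM in the second. Over all genes 3.38%, 10.2% and 9.69% were called higher and 2.75%, 10.5% and 6.62% lower between genotypes in proBpreB, Immature and Mature cells, against which the marker lists can be read. In Immature cells all 25 proliferation genes were lower in flox/flox (summed 1347 to 1802 against 3774 to 4669 CPM), and in Mature cells 13 of 25 were higher. Erythroid markers were higher for 8 of 13 in Immature cells (summed 10309.9 to 19072 against 2555 to 8105 CPM) and 3 of 13 in Mature cells, and neutrophil and monocyte markers for 5 of 19 in Immature cells (summed 12653 to 17157 against 8716 to 10297 CPM). B lineage markers were lower for 5, 1 and 4 of 8, and mature B cell markers for 6, 6 and 2 of 9 (1 higher in proBpreB), in proBpreB, Immature and Mature cells. T cell markers were higher for 3, 1 and 1 of 10 (the last counts near the share of all genes), natural killer cell markers for 0, 2 and 3 of 10, and pro-B and pre-B markers for 0, 3 and 3 of 10 (1 lower in Immature). No marker of the lists named so far was at 0 counts over a whole group. Plasma cell markers were lower for 1, 3 and 1 of 6 (1 higher in Immature) in proBpreB, Immature and Mature cells. Plasmacytoid dendritic cell markers were lower for 1, 1 and 2 of 8 (0, 1 and 1 higher). Stroma and endothelium markers were lower for 0, 0 and 1 of 8 (0, 0 and 1 higher). In proBpreB cells edgeR called 0 of 25 proliferation genes, 0 of 13 erythroid and 0 of 19 neutrophil and monocyte markers, with 1, 3 and 1 at an unadjusted p under 0.05. DESeq2 called 0, 2 and 0 of them and limma-voom 0, 1 and 0. The part of these markers in the results was not tested. In sorted bulk RNA, fewer cells of a type and less RNA per cell cannot be told apart.

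All 8 tested results were higher in flox/flox than in flox/WT cells of every population. The 8 calls by edgeR's quasi-likelihood test (adjusted p under 0.05 over 12850 genes) stand beside 3.38% of all genes called higher in proBpreB, 10.2% in Immature and 9.69% in Mature B cells. The median log2 change over the 8 results was 3.26 in proBpreB (range 2.10 to 4.56), 2.99 in Immature (2.17 to 6.81) and 2.55 in Mature cells (2.15 to 4.66), where the medians over all genes tested were -0.0024, 0.0034 and 0.0072. The 2 genotypes did not overlap for any tested member in any population, a separation that 15.4%, 22.9% and 16.3% of all genes showed in either direction. Together the 10 members took 0.225% ± 0.0296 of library counts in flox/WT and 2.17% ± 0.167 in flox/flox proBpreB cells (SD, n = 4 each). The shares were 0.357% ± 0.0148 and 2.92% ± 0.109 in Immature, and 0.389% ± 0.0497 and 2.21% ± 0.244 in Mature cells. The genotype changes of single members kept their direction and stayed past the threshold in 915 of 915 values over 34 alternative fits, with a smallest log2 change of 1.98.

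**Figure D1:**
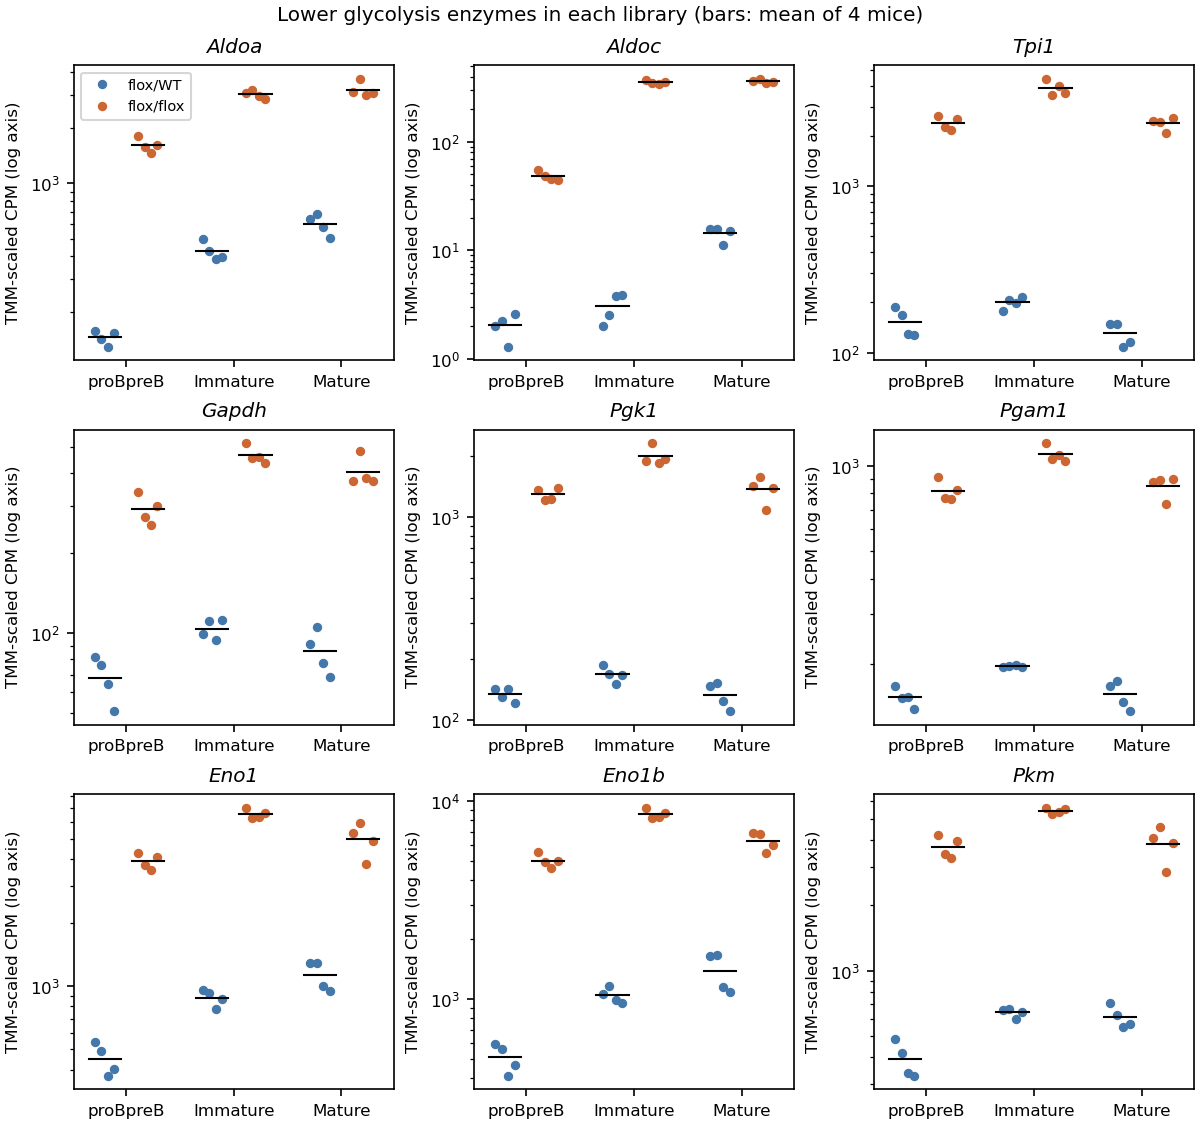
Level of each tested member in every library, in TMM-scaled CPM on a log axis, by population (x axis) and genotype (blue flox/WT, orange flox/flox). Each point is 1 mouse and each bar the mean of 4; orange points lie above blue points in every panel and population, most widely for Aldoc in Immature cells (3.06 against 353 CPM).

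The aldolases differed most from each other. Aldoc, the aldolase best known from brain (chromosome 11, 78323073 to 78327781, GRCm38), measured 2.02, 2.23, 1.29 and 2.61 CPM in proBpreB flox/WT replicates 1 to 4 and 54.9, 48.4, 45.7 and 44.7 CPM in flox/flox. In Immature cells it measured 2.02, 2.54, 3.79 and 3.89 CPM in flox/WT and 371, 347, 339 and 357 CPM in flox/flox. In Mature cells the values were 15.6, 15.7, 11.2 and 15.0 CPM and 366, 382, 347 and 358 CPM. Aldoc was thus low in proBpreB and Immature flox/WT cells, with 94 and 123 counts over 4 libraries, and the flox/flox libraries of Immature and Mature cells overlapped. Its log2 change was 4.56 (SE 0.17, adjusted p = 1.66e-18) in proBpreB, 6.81 (SE 0.17, adjusted p = 1.73e-22) in Immature and 4.66 (SE 0.15, adjusted p = 6.93e-20) in Mature cells by edgeR, the largest of the members in each population. Among all 12850 genes its rank by the size of the rise was 21 in proBpreB, 18 in Immature and 52 in Mature B cells.

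Aldoa, the main aldolase of muscle and of most other tissues (chromosome 7, 126795234 to 126800994), was expressed in all groups. In proBpreB cells it measured 159, 142, 129 and 153 CPM in flox/WT and 1791, 1571, 1461 and 1606 CPM in flox/flox replicates 1 to 4. The Immature values were 499, 429, 387 and 398 CPM in flox/WT and 3092, 3214, 2979.7 and 2863 CPM in flox/flox. In Mature cells they were 642, 678, 576 and 501 CPM and 3116, 3685, 2989.6 and 3075 CPM. The lowest flox/flox library, in proBpreB, lay above the highest flox/WT library of any population. The log2 change was 3.46 (SE 0.12) in proBpreB, 2.83 (SE 0.11) in Immature and 2.42 (SE 0.11) in Mature cells, with adjusted p-values of 2.93e-19, 1.04e-17 and 3.41e-16 by edgeR. Exons of Aldoa overlap Fam57b on the opposite strand, and whether counting used strand is not stated in the sources used here. Aldoart1, a testis aldolase gene that matches Aldoa over 1508 bases at 92.7% identity, held 1072 counts in all 24 libraries and rose by 3.03, 2.96 and 2.59 on the log2 scale. Whether its counts came from Aldoa reads was not tested.

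The share of Aldoc in the summed counts of both aldolases gives the balance of isozymes without any scaling between libraries. It was 1.26, 1.55, 0.987 and 1.67% in proBpreB flox/WT replicates 1 to 4 and 2.98, 2.99, 3.03 and 2.71% in flox/flox. The Immature shares were 0.403, 0.589, 0.968 and 0.967% in flox/WT and 10.7, 9.74, 10.2 and 11.1% in flox/flox, and the Mature shares 2.37, 2.27, 1.91 and 2.90% and 10.5, 9.40, 10.4 and 10.4%. The groups did not overlap in any population. A two-sided exact permutation test gave p = 0.0286 in each, the smallest that 70 assignments allow, and p = 0.0572 after adjustment over the family of 6 share tests, which does not pass 0.05. The family includes the Eno2 shares, which did not separate. No lower adjusted value was then open to the Aldoc shares, so the adjusted test could not decide. Within flox/WT mice the mean share ran from 0.732% ± 0.283 in Immature to 2.36% ± 0.411 in Mature cells (SD, n = 4), and in flox/flox mice from 2.93% ± 0.147 in proBpreB to 10.4% ± 0.586 in Immature cells.

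**Figure D2:**
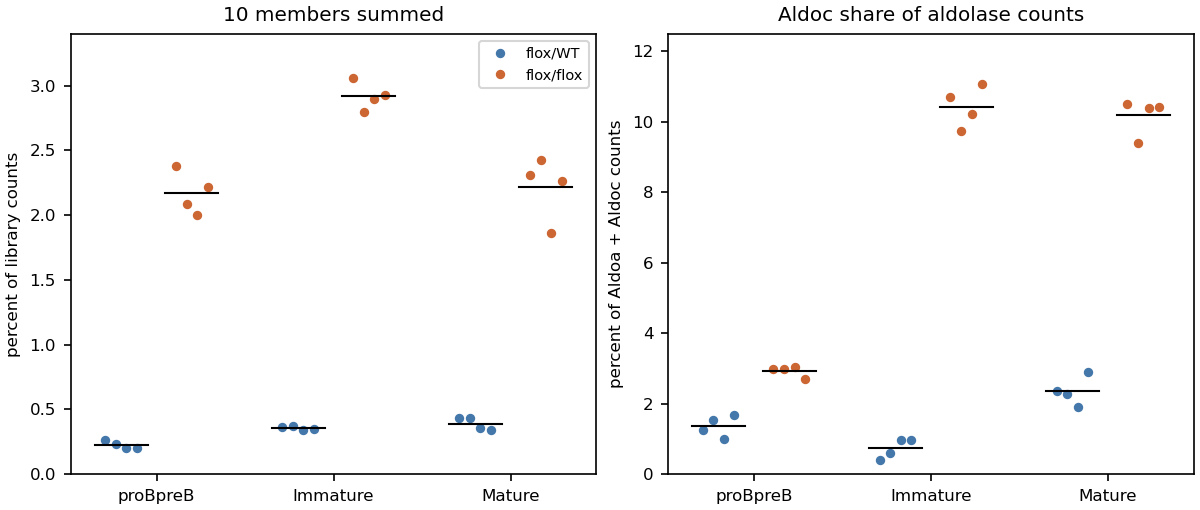
Left, the 10 members summed as a percent of library counts; right, Aldoc as a percent of Aldoa plus Aldoc counts, by population (x axis) and genotype (blue flox/WT, orange flox/flox). Points are mice and bars means of 4; the summed members reach at most 0.433% in flox/WT and at least 1.86% in flox/flox libraries, and the Aldoc share runs from 9.40% to 11.1% in flox/flox Immature and Mature libraries.

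Tpi1, which interconverts the triose phosphates made by aldolase (chromosome 6, 124810586 to 124814158), had the second largest change. In proBpreB cells it measured 187, 167, 130.1 and 127 CPM in flox/WT and 2635, 2264, 2168 and 2534 CPM in flox/flox replicates 1 to 4. Immature libraries held 179, 206, 199 and 217 CPM in flox/WT and 4432, 3523, 4003 and 3646 CPM in flox/flox. Mature libraries held 148, 149, 108 and 116 CPM and 2480.1, 2434, 2079 and 2554 CPM. The lowest flox/flox library, at 2079 CPM in Mature cells, lay far above the highest flox/WT library, at 217 CPM in Immature cells. The ratio of group means was 15.7 in proBpreB, 19.5 in Immature and 18.3 in Mature B cells, and the log2 changes were 3.97 (SE 0.14), 4.28 (SE 0.14) and 4.20 (SE 0.14) (edgeR, largest adjusted p = 7.73e-19). Exons of Tpi1 overlap Spsb2 on the opposite strand, and 2 pseudogenes aligned to Tpi1 but are not among the rows of the count table.

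Gapdh, which oxidises the triose phosphate and is often used as a reference gene (chromosome 6, 125161852 to 125166467), had the smallest change of the members in proBpreB and Immature cells. It measured 51.0 to 81.4 CPM in flox/WT and 255 to 339 CPM in flox/flox proBpreB cells. The ranges were 94.2 to 113 and 437 to 519 CPM in Immature, and 68.7 to 105 and 373 to 484 CPM in Mature cells. Its log2 change was 2.10 (SE 0.14, adjusted p = 2.68e-12) in proBpreB, 2.17 (SE 0.14, adjusted p = 9.63e-13) in Immature and 2.24 (SE 0.14, adjusted p = 5.35e-13) in Mature cells by edgeR. Rows of near copies also hold reads of Gapdh-like sequence. By blastn of its longest coding transcript against GENCODE M21 (at least 300 aligned bases at 90% identity), 177 other genes aligned, 168 of them pseudogenes, and 9 of the 177 have a row in the count table. Gm12070, a processed pseudogene that is 99.9% identical over 1002 bases, held 69413 counts in all, and the Gapdh row held 51943. Gm12070 measured 136, 54.5, 101 and 85.2 CPM in flox/WT and 515, 427, 292 and 396 CPM in flox/flox proBpreB replicates 1 to 4. It rose by 2.11, 2.19 and 2.09 on the log2 scale in proBpreB, Immature and Mature cells (edgeR adjusted p = 0.000206, 4.73e-05 and 0.000119), with an SE of 0.33 in proBpreB against 0.14 for Gapdh. The sources used here do not say how reads with several matches were counted, so the level of Gapdh is uncertain. Summed with Gm12070, Gapdh kept its call in each population. Exons of Gapdh also overlap Iffo1 on the opposite strand.

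**Figure D3:**
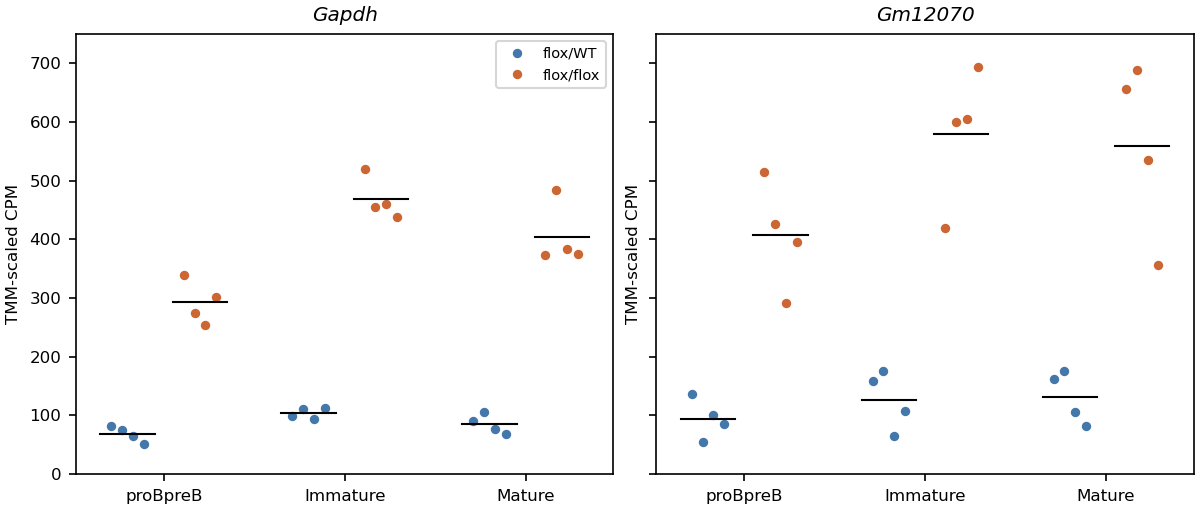
Gapdh (left) and its near copy Gm12070 (right) in every library, in TMM-scaled CPM on a shared linear axis, by population and genotype (blue flox/WT, orange flox/flox). Points are mice and bars means of 4; both rows were higher in flox/flox, and Gm12070 spread more widely within groups, from 419 to 694 CPM in Immature flox/flox libraries.

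Pgk1, the kinase that makes the first ATP of the pathway, lies on the X chromosome (106187100 to 106203699). It measured 120.4 to 142 CPM in flox/WT and 1208 to 1389 CPM in flox/flox proBpreB libraries, 149.8 to 187 and 1839 to 2301 CPM in Immature, and 110.2 to 151 and 1078 to 1574 CPM in Mature cells. The genotypes were again apart in each population. Its log2 change of 3.28 (SE 0.13), 3.56 (SE 0.13) and 3.36 (SE 0.13) in proBpreB, Immature and Mature cells was called by edgeR (largest adjusted p = 3.78e-18), and it was called also when sex was a covariate. By Y-linked counts 1 mouse of each genotype, replicate 1, was male and 6 mice were female.

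Pgam1, the mutase that moves the phosphate group of phosphoglycerate (chromosome 19, 41911871 to 41918665), varied little between mice in Immature flox/WT cells. The Immature flox/WT libraries measured 195, 196, 198 and 195 CPM, a coefficient of variation of 0.796%. The Immature flox/flox libraries measured 1206, 1064, 1098 and 1041 CPM. Group means were 152 ± 11.2 and 818 ± 71.9 CPM in proBpreB, and 155 ± 17.7 and 853 ± 78.3 CPM in Mature cells (SD, n = 4 each). Its log2 changes of 2.43 (SE 0.10), 2.49 (SE 0.10) and 2.46 (SE 0.10) were close to each other (edgeR, largest adjusted p = 3.04e-17). Pseudogenes at up to 100% identity aligned to Pgk1 (4) and Pgam1 (3), and none of them is among the rows of the count table.

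The enolases, which make phosphoenolpyruvate, held the most counts of the members. Eno1 (chromosome 4, 150236708 to 150248879) measured 539, 489, 374 and 402 CPM in flox/WT and 4308.5, 3775, 3545 and 4109 CPM in flox/flox proBpreB replicates 1 to 4. Immature libraries held 957, 925, 778 and 863 CPM in flox/WT and 7057, 6278, 6386 and 6677 CPM in flox/flox. Mature libraries held 1282, 1283, 1001 and 946 CPM and 5321, 5942, 3814 and 4899 CPM. The lowest flox/flox value, 3545 CPM in proBpreB, exceeded the highest flox/WT value, 1283 CPM in Mature cells. The log2 change was 3.12 (SE 0.14) in proBpreB, 2.91 (SE 0.14) in Immature and 2.15 (SE 0.14) in Mature cells (edgeR, largest adjusted p = 5.13e-13). Eno1b (chromosome 18) matches Eno1 at 99.5% identity over 1736 bases and took 52.3% to 58.9% of the counts of the pair in the 24 libraries. In the order proBpreB, Immature and Mature, its changes of 3.30, 3.04 and 2.17 are no separate result.

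Eno2, the enolase best known from neurons (chromosome 6, 124760053 to 124769673), held 27 counts in all 24 libraries and was not tested across genes. It had 2 counts in flox/WT and 7 in flox/flox proBpreB, 5 and 8 in Immature, and 0 and 5 in Mature libraries. No library held more than 4. With 0 counts in the Mature flox/WT group, a level of up to 0.0862 CPM (3 counts over the 4 libraries, for counting error only) is allowed. The Eno2 share of enolase counts did not separate the genotypes, with two-sided exact permutation p-values of 1, 0.429 and 0.429. The summed counts in that share include Eno1 and Eno1b, which rose in flox/flox, so the share does not test the level of Eno2. No test of that level was run at these few counts.

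Pkm, which makes pyruvate and the last ATP of the pathway (chromosome 9, 59656576 to 59679372), measured 328 to 483 CPM in flox/WT and 3291 to 4211 CPM in flox/flox proBpreB libraries. In Immature cells the ranges were 602 to 663 and 5266 to 5619 CPM, and in Mature cells 548 to 711 and 2839 to 4571 CPM. The Mature flox/flox libraries were widely spread, at 4068, 4571, 2839 and 3860.4 CPM in replicates 1 to 4, while the Immature flox/flox libraries had a coefficient of variation of 2.88%. Its log2 change was 3.25 (SE 0.14), 3.08 (SE 0.14) and 2.65 (SE 0.14) in proBpreB, Immature and Mature cells (edgeR, largest adjusted p = 3.79e-15). The table counts the gene as a whole, so the muscle and embryonic splice forms, PKM1 and PKM2, are not told apart.

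The genotype effect differed between populations for Aldoc, Aldoa and Eno1. This was tested as the difference of the log2 changes, flox/flox against flox/WT, in the same edgeR fit. For Aldoc the effect in Immature exceeded that in proBpreB by 2.25 (SE 0.25, adjusted p = 9.99e-07) and the Mature effect less the Immature one was -2.15 (SE 0.21, adjusted p = 3.60e-08). Between Mature and proBpreB cells it differed by 0.10 (95% interval -0.40 to 0.61), without a call. The Immature effect was large against a flox/WT mean of 3.06 CPM, and the Mature one against 14.4 CPM, while the flox/flox means were 353 and 363 CPM.

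For Aldoa the difference was -0.64 (SE 0.15, adjusted p = 0.00620) between Immature and proBpreB and -1.04 (SE 0.15, adjusted p = 0.000113) between Mature and proBpreB cells by edgeR. The step from Immature to Mature, -0.40, was not called (adjusted p = 0.112), but was without Immature flox/WT replicate 1 (-0.48, adjusted p = 0.0437). Its flox/WT mean was 146, 428 and 599 CPM in proBpreB, Immature and Mature cells, and its flox/flox mean 1607, 3037 and 3216 CPM. For Eno1 the Mature effect less the Immature one was -0.76 (SE 0.19, adjusted p = 0.00814) and less the proBpreB one -0.98 (SE 0.19, adjusted p = 0.00199). In counts, 1 result was higher and 1 lower of 8 in Immature against proBpreB, beside 4.72% and 6.14% of all genes, 2 (Aldoc and Eno1) were lower in Mature against Immature, beside 2.23%, and 2 (Aldoa and Eno1) were lower in Mature against proBpreB, beside 0.786%. Pkm had a difference of -0.60 between Mature and proBpreB cells that was not called (adjusted p = 0.0695) but was called with the mouse as a replicate block (adjusted p = 0.0183), by DESeq2 (0.0387) and by limma-voom, in which each mouse was a random block (0.0283). It was also called when sex was a covariate (0.0373), without proBpreB flox/WT replicate 1 (0.0213) and without Mature flox/flox replicate 2 (0.0289).

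The other 4 members showed no called difference of the genotype effect. Its 95% interval was -0.34 to 0.47 for Gapdh, -0.23 to 0.35 for Pgam1, -0.06 to 0.64 for Pgk1 and -0.06 to 0.69 for Tpi1 between Immature and proBpreB cells. Between Mature and Immature cells they were -0.33 to 0.48, -0.33 to 0.25, -0.55 to 0.14 and -0.46 to 0.29. Differences within those bounds could not be resolved with 4 mice per group. In the libraries where the Aldoc effect was largest, those of Immature cells, the proliferation markers were lower and the erythroid markers higher in flox/flox, and the part of these in the result was not tested.

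**Figure D4:**
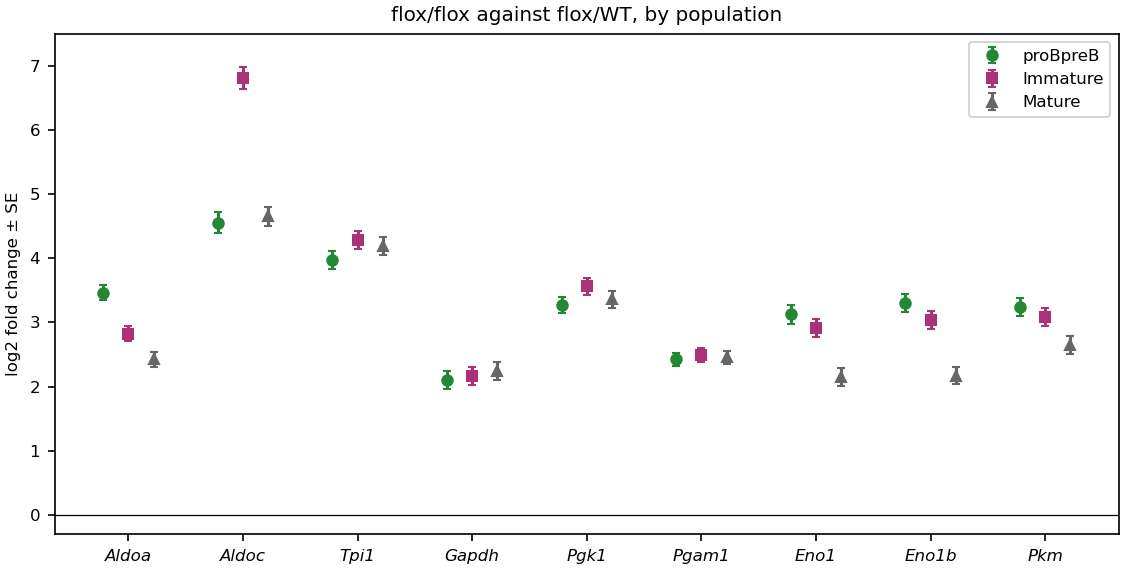
Log2 change of each tested member, flox/flox against flox/WT, with its SE (error bars, edgeR), in proBpreB (circles), Immature (squares) and Mature cells (triangles). All points lie above 2; Aldoc stands out in Immature cells at 6.81, and Aldoa and Eno1 decline from proBpreB to Mature cells, from 3.46 to 2.42 and from 3.12 to 2.15.

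In flox/WT mice all 8 tested results were higher in Immature than in proBpreB cells, beside 24.0% of all genes called higher. The median log2 change was 0.61. Aldoa changed most, by 1.55 (SE 0.11, adjusted p = 1.96e-12), followed by Eno1 at 0.97 and Pkm at 0.71, and Pgk1 least, by 0.33 (SE 0.12, adjusted p = 0.0220). For Aldoc, at 0.62 (adjusted p = 0.0140), and Tpi1, at 0.39 (adjusted p = 0.0124), the libraries of the 2 populations overlapped. The Aldoc call was lost in 5 alternatives (adjusted p up to 0.179 when only the compared groups were fitted, limma-voom 0.0857) including the fits without proBpreB flox/WT replicate 3 (0.0674), Immature flox/WT replicate 3 (0.0739) and Immature flox/WT replicate 4 (0.0748). That of Tpi1 was lost without proBpreB flox/WT replicate 3 (0.0548) or 4 (0.0599), and that of Pgk1 without Immature flox/WT replicate 1 (0.0741) or proBpreB flox/WT replicate 4 (0.0738). The 6 results whose libraries did not overlap stand beside 43.9% of all genes. In this and the other stage comparisons the libraries are paired by mouse, and edgeR with the mouse as a fixed block changed no call of a member in them, while the limma-voom fit, which has the mouse as a random block, lost the Aldoc call above. In the same step 13 of 19 neutrophil and monocyte markers were higher (summed 4388 to 6455 CPM in proBpreB, 8716 to 10297 in Immature) and 6 of 13 erythroid markers (1669 to 3572 and 2555 to 8105 CPM). Of all genes 25.4% were called lower in this step. Natural killer cell markers were lower for 10 of 10 (219 to 317 and 23.8 to 38.9 CPM) and T cell markers for 8 of 10. Proliferation genes were lower for 19 of 25 (5975 to 8612 and 3774 to 4669 CPM). The part of these markers and genes in the stage changes was not tested.

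From Immature to Mature cells of flox/WT mice the members divided. Aldoc rose by 2.19 (SE 0.17, adjusted p = 3.39e-11), Aldoa by 0.48 (SE 0.11, adjusted p = 0.000806) and Eno1 by 0.36 (SE 0.13, adjusted p = 0.0359) on the log2 scale. Tpi1 fell, with a change of -0.62 (SE 0.13, adjusted p = 0.000341), as did Pgam1 at -0.34 (adjusted p = 0.00902) and Pgk1 at -0.33 (adjusted p = 0.0293). Gapdh at -0.29 (adjusted p = 0.117) and Pkm at -0.07 (adjusted p = 0.716) were not called. The 3 rises stand beside 15.6% and the 3 falls beside 17.1% of all genes. In the same step proliferation genes were lower for 25 of 25 (summed 935 to 1639 CPM in Mature cells) and neutrophil and monocyte markers higher for 8 of 19 (12140.4 to 19136 CPM), and the part of these in the result was not tested. The Eno1 call was lost without Mature flox/WT replicate 1 (0.118) or 2 (0.120), or Immature flox/WT replicate 2 (0.0544), 3 (0.112) or 4 (0.0752). The Pgk1 call was lost without Immature flox/WT replicate 1 (0.0935) or 4 (0.0516), or Mature flox/WT replicate 3 (0.0851) or 4 (0.126), and Gapdh was called lower without Mature flox/WT replicate 2 (-0.40, adjusted p = 0.0348).

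Across the whole course in flox/WT mice, Mature cells exceeded proBpreB cells in Aldoc by 2.80, in Aldoa by 2.04, in Eno1 by 1.32 and in Pkm by 0.64 on the log2 scale (edgeR, largest adjusted p = 0.000103), and Gapdh had a change of 0.33 (SE 0.14, adjusted p = 0.0438). These 5 calls stand beside 29.2% of all genes called higher. The Gapdh call was lost with RLE size factors (0.0775), without the filter on low counts (0.0545), with a filter of 10 CPM (0.0540), when only the compared groups were fitted (0.140), by DESeq2 (0.0749) and when its counts were summed with those of Gm12070 (0.0707). It was also lost without Mature flox/WT replicate 1 (0.0995) or 2 (0.207), proBpreB flox/WT replicate 3 (0.0928) or 4 (0.199), or proBpreB flox/flox replicate 4 (0.0501). Pgam1 at 0.03, Pgk1 at -0.01 and Tpi1 at -0.23 were not called, with 95% intervals of -0.18 to 0.24, -0.26 to 0.24 and -0.50 to 0.03. Tpi1 was called lower without proBpreB flox/WT replicate 4 (-0.31, adjusted p = 0.0466). Between the same populations 16 of 19 neutrophil and monocyte and 10 of 13 erythroid markers were higher. Beside 29.6% of all genes called lower, 25 of 25 proliferation genes and 10 of 10 natural killer cell markers were lower. The part of these markers and genes was not tested.

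In flox/flox mice all 8 results were again higher in Immature than in proBpreB cells, beside 28.7% of all genes, and in none of the 8 did the libraries of the 2 populations overlap, beside 54.8% of all genes. In this step 15 of 19 neutrophil and monocyte markers were higher (4611 to 5785 CPM in proBpreB, 12653 to 17157 in Immature). Erythroid markers were higher for 10 of 13 (2234 to 3964 and 10309.9 to 19072 CPM). Beside 27.2% of all genes called lower, 10 of 10 natural killer cell markers and 25 of 25 proliferation genes were lower. The part of these markers and genes was not tested. Aldoc rose by 2.87 (SE 0.13, adjusted p = 2.11e-16), and the other 7 by 0.43 (Pgam1) to 0.92 (Aldoa). From Immature to Mature cells 0 were called higher, by edgeR, DESeq2 or limma-voom and at an unadjusted p under 0.05, and 5 were lower, beside 12.9% and 13.6% of all genes. Tpi1 fell most, with a change of -0.71 (SE 0.13, adjusted p = 7.31e-05), then Pgk1 at -0.54, Pkm at -0.50, Eno1 at -0.40 and Pgam1 at -0.37 (edgeR, largest adjusted p = 0.0218, for Eno1). The Eno1 call was lost without Immature flox/flox replicate 1 (adjusted p = 0.0585) or Mature flox/flox replicate 3 (0.0998). Both aldolases and Gapdh were not called, at 0.08 for Aldoa (adjusted p = 0.621), 0.04 for Aldoc (0.851) and -0.21 for Gapdh (0.266).

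Mature flox/flox cells exceeded proBpreB cells in 4 results, beside 29.7% of all genes called higher: Aldoc by 2.91, Aldoa by 1.00, Gapdh by 0.47 and Eno1 by 0.34 on the log2 scale (edgeR adjusted p = 6.31e-17, 5.27e-09, 0.00423 and 0.0251). The Eno1 call was lost without Mature flox/flox replicate 1 (0.0660) or 2 (0.116), or proBpreB flox/flox replicate 2 (0.0513) or 3 (0.0698). Between these populations 16 of 19 neutrophil and monocyte and 11 of 13 erythroid markers were higher. Beside 29.5% of all genes called lower, 25 of 25 proliferation genes were lower. The part of these markers and genes was not tested. Tpi1, Pgk1, Pgam1 and Pkm lay between -0.01 and 0.08 and were not called. For the difference between genotypes in these steps, the tests of the genotype effect above apply, in which Aldoc, Aldoa and Eno1 were called.

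**Figure D5:**
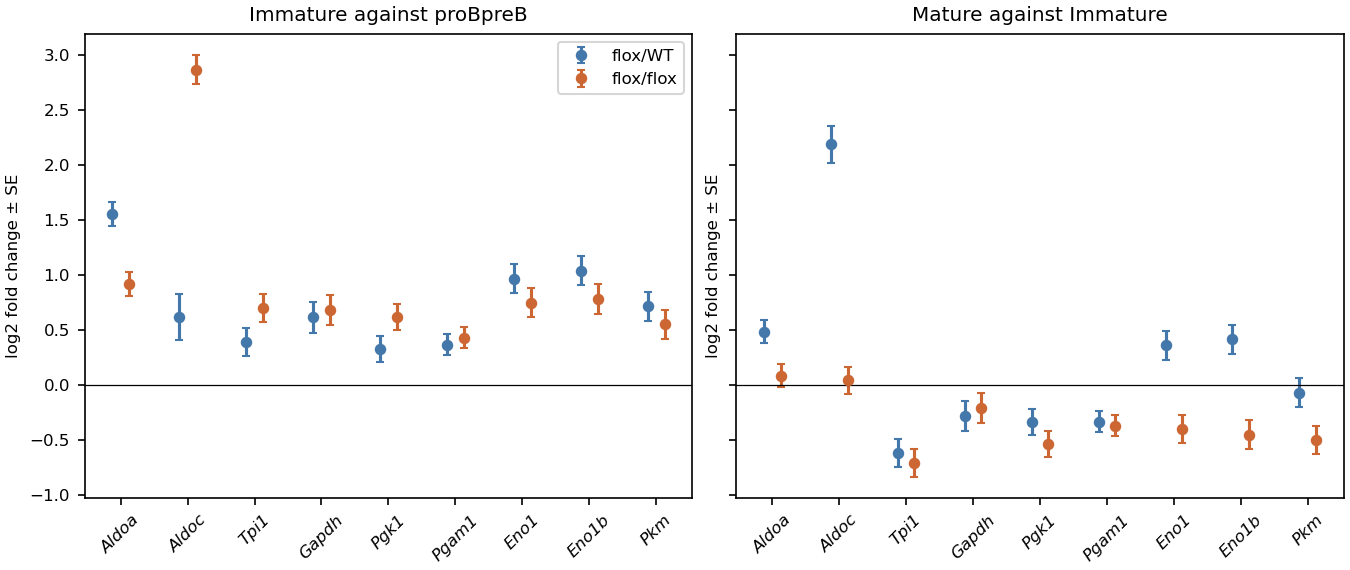
Log2 change with its SE (error bars, edgeR) of each tested member from proBpreB to Immature cells (left) and from Immature to Mature cells (right), in flox/WT (blue) and flox/flox mice (orange). All points lie above 0 on the left; on the right Aldoc lies at 2.19 in flox/WT and at 0.04 in flox/flox, and Eno1 lies at 0.36 in flox/WT and at -0.40 in flox/flox.

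Levels of different enzymes were compared per length, as TMM-scaled CPM per kb of merged GENCODE M21 exons. The merged lengths, over all transcripts of a gene, run from 1982 bases (Pgam1) to 5379 bases (Eno1), with 4133 bases for Gapdh. Leaving out Eno1b, whose reads are shared with Eno1, the order in proBpreB flox/WT cells was led by Eno1 at 83.8 ± 14.2, Pkm at 78.4 ± 14.5 and Pgam1 at 76.8 ± 5.67 CPM per kb (SD, n = 4), whose SD ranges met. Pgk1 at 59.5 ± 4.63 and Tpi1 at 55.6 ± 10.6 followed and did not differ beyond their spread, then Aldoa at 39.3 ± 3.46, Gapdh at 16.5 ± 3.25, Aldoc at 0.625 ± 0.170 and Eno2 at 0.00979 ± 0.0196 CPM per kb. In proBpreB flox/flox cells Tpi1 stood above the other rows, Eno1b left out, at 872 ± 80.0 CPM per kb, and its SD range met those of Pkm at 744 ± 85.0 and Eno1 at 731 ± 63.2. In Immature flox/flox cells, where the SD ranges of Tpi1 and Eno1 and of Pgk1 and Aldoa met, the order was Tpi1 at 1417 ± 148, Eno1 at 1227 ± 64.8, Pkm at 1088 ± 31.3, Pgk1 at 884 ± 95.4, Aldoa at 819 ± 40.5 and Pgam1 at 556 ± 36.8 CPM per kb. By merged length, Tpi1 was thus below Pkm, Aldoa, Pgam1 and Pgk1 in Immature flox/WT cells (72.7 ± 5.85 CPM per kb). Tpi1 stood above them in flox/flox, although its distance from Pgk1 in flox/WT was within their spread. By merged length, Gapdh at 113 ± 8.56 and Aldoc at 108 ± 4.22 CPM per kb had SD ranges that met in Immature flox/flox cells. In flox/WT they measured 25.2 ± 2.19 and 0.937 ± 0.283. Before division by length the flox/flox means were 468 and 353 CPM. The merged exons of Gapdh, at 4133 bases, far exceed its longest coding transcript of 1420 bases, where those of Aldoc measure 3263 against 2786. Gapdh and Aldoc are therefore not shown to be at the same level. The place of Gapdh and of the enolases in these orders depends on how reads shared with near copies were counted. The places of Pgk1, Pgam1, Pkm and Tpi1 may depend on it too. Pseudogenes aligned to them at up to 100%, 100%, 98.4% and 97.7% identity. All places also depend on the choice of length. The longest coding transcripts are shorter than the merged exons by unequal amounts, at 1607 bases for Tpi1, 1775 for Pgam1, 1825 for Pgk1 and 2027 for Eno1. Orders per kb of those transcripts were not computed. Close places could change, such as Tpi1 beside Pgam1 and Pgk1 in flox/WT or beside Eno1 in flox/flox. With the Eno1 and Eno1b rows summed over the merged length of Eno1, enolase stood at 178 ± 30.1 CPM per kb in proBpreB flox/WT cells. It stood at 1662 ± 132 in proBpreB flox/flox, 358 ± 29.1 in Immature flox/WT and 2825 ± 157 in Immature flox/flox cells. The pair lay above Tpi1 in each of these groups, and above Pkm and Pgam1 in proBpreB flox/WT cells.

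For each member the 3 genes with the most similar pattern were found among the 12850 tested, by the root mean square difference over the 6 group means of log2 CPM after each gene was centred on its own mean. Gapdh was nearest to its copy Gm12070 (0.122), then to Ero1l, an oxidase of the endoplasmic reticulum (0.135), and to Pgam1 (0.207). Pgam1 was nearest to Higd1a, a mitochondrial protein (0.169), Fam162a (0.180) and the cytokine Mif (0.206). Pgk1 and Pkm were both nearest to Ldha, the lactate dehydrogenase subunit, at 0.238 and 0.238, with P4ha1, a collagen prolyl hydroxylase as a further neighbour of Pgk1 (0.289). Aldoa was nearest to Aldoart1 (0.251) and the glucose transporter gene Slc2a1 (0.262), and Eno1 to Eno1b (0.0711), Aldoart1 (0.240) and Pkm (0.251). Tpi1 was nearest to the copper transporter gene Atp7b (0.221), Prelid2 (0.303) and Pgk1 (0.392). Aldoc had less close neighbours, which included the lactate exporter gene Slc16a3 (0.964) and Nxph4 (0.976). Likeness over 6 group means of the same libraries is a description.

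The other genes of the pathway were counted from lists of names, and by edgeR. Of 16 tested genes of upper glycolysis, glucose uptake to phosphofructokinase, 10 were higher and 1 lower in proBpreB, 11 higher in Immature and 10 higher in Mature flox/flox cells, with median log2 changes of 1.33, 1.49 and 1.55. Of all genes tested, 3.38%, 10.2% and 9.69% were called higher and 2.75%, 10.5% and 6.62% lower in the same comparisons. The phosphofructokinase genes Pfkl and Pfkp changed by 3.61, 3.25 and 3.15 and by 2.55, 2.87 and 3.11 in proBpreB, Immature and Mature cells. Pfkfb3, which makes an activator of phosphofructokinase, rose by 1.48, 2.63 and 3.10, and Slc2a1, which encodes the glucose transporter GLUT1, by 3.03, 2.49 and 2.35. The gene that was lower in proBpreB was Slc2a8, at -0.64.

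Of 20 tested genes for the fate of pyruvate and lactate, 5 were higher in each population and 1, 0 and 2 were lower in proBpreB, Immature and Mature cells, and the medians were -0.03, 0.08 and 0.09. These counts stand beside 3.38%, 10.2% and 9.69% of all genes called higher and 2.75%, 10.5% and 6.62% called lower. The genes called lower are too few to be read as a result about the list. Slc16a3, which exports lactate, rose by 5.57, 5.75 and 5.05, from 12.6 ± 2.36 to 685 ± 66.2 CPM in Immature cells (SD, n = 4 each). Ldha rose by 3.08, 3.08 and 2.80 and Pdk1, a kinase that inhibits pyruvate dehydrogenase, by 3.10, 2.88 and 2.40, while Pdk2 was called in Immature cells alone of the 3 tests (1.04). The lower ones were Mpc2, a subunit of the mitochondrial pyruvate carrier, in proBpreB and Mature cells (-1.003 and -0.41) and the transaminase gene Gpt in Mature cells (-2.43). The genes of the pyruvate dehydrogenase complex itself, Pdha1, Pdhb, Dlat, Dld and Pdhx, were not called in any population.

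Of 8 tested other isozymes of the lower steps, Aldoart1 was higher in all 3 populations, Eno3, the muscle enolase, was lower in Immature cells (-1.05, adjusted p = 0.0209) and no other was called, with list medians of -0.0135, 0.37 and 0.03. Pgam2, the muscle mutase, at 0.01, 0.59 and -0.56 and Bpgm at -0.54, 0.35 and 0.09 were not called. Genes at branches off the triose phosphates and phosphoglycerate were called higher in 1, 0 and 2 and lower in 1, 4 and 2 of 12 cases, beside 3.38%, 10.2% and 9.69% of all genes called higher and 2.75%, 10.5% and 6.62% called lower (medians -0.08, -0.10 and 0.05). In Immature cells the serine synthesis genes Phgdh and Psat1 fell by 1.23 and 0.89 and Shmt1, which makes glycine from serine, by 1.31 on the log2 scale, where Shmt1 was higher in Mature cells (0.83). Gpd1l, a glycerol phosphate dehydrogenase gene, was lower in all 3 populations, at -0.81, -0.47 and -0.75. Of 4 gluconeogenic genes tested, Pcx, pyruvate carboxylase, at 1.48 and G6pc3 at 0.53 were higher in proBpreB cells, and none of the 4, which include Pck2 and Fbp1, was called in Immature or Mature cells by edgeR, DESeq2 or limma-voom, with 0 of 4 at an unadjusted p under 0.05.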

How the data were processed

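RNA of sorted mouse bone marrow B cells was amplified with the SMARTer low input kit, per the labels. The authors deposited read counts per gene, and CASAVA, FastQC, Trim Galore, HISAT2, featureCounts, DESeq2 and the mm10 genome appear in the submitters' processing notes. The sources used here do not state settings, annotation or use of strand. A deposited signal table of 17514 genes, in which each library's counts are divided by a single factor, was not used in tests.

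Counts of 24 libraries in 6 groups were fitted together with edgeR 4.0.16 (R 4.3.3), using TMM factors, filterByExpr, robust quasi-likelihood tests and 18 residual degrees of freedom. P-values were adjusted by Benjamini-Hochberg over 12850 genes in each of 12 comparisons, with a threshold of 0.05. They measure the spread between mice within a group. The fit had no term for the mouse, so comparisons between populations treat the paired libraries of a mouse as independent. The biological coefficient of variation was 18%, and totals of 7850186 to 11863949 counts set the precision. Levels are TMM-scaled CPM. The fit was tested on simulated data. Intervals and floors cover counting error only where they come from counts.

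The members and lists were chosen with earlier results of these data known. Named were all members, the 3 most alike genes of each (1 of them is not reported here) and up to 4 genes per pathway list by adjusted p in Immature cells, and any others were chosen after their values were seen. Alternatives used DESeq2 1.42.0 and limma 3.58.1. Libraries of 1 mouse are paired by the host number in the labels, and deviations of the same mouse correlated between -0.28 and 0.37 (16 of 24 pairs over 0.1, 5000 genes). The same numbers in the 2 genotypes are different mice. Pairs of such libraries correlated between -0.47 and 0.54 (13 of 36 over 0.1), a range that includes that of the same mouse. No library duplicated another, with chi-square values of at least 6.05 per degree of freedom in 36 pairs. Promoter windows came from RefSeq (GRCm38.p6), and near copies from blastn 2.17.0 on GENCODE M21 transcripts.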

Additional observations from a re-analysis of the deposited data

Results flagged for a closer look

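Among 66 groups of 4 libraries checked for a library far from the other three, 5 held one, where chance gives about 1 in 20. Aldoc was lowest in Mature flox/WT replicate 3, at 11.2 CPM. Gapdh was highest in Mature flox/flox replicate 2, at 484 CPM, and Pgam1 lowest in Mature flox/flox replicate 3, at 736 CPM. Pgk1 was highest in Immature flox/flox replicate 2, at 2301 CPM. The Aldoc share of aldolase counts was lowest in Mature flox/flox replicate 2, at 9.40%. All of these libraries stayed on their genotype's side of the other genotype's range.

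The genotype effect differed between populations by the test of the difference itself (edgeR, adjusted over all genes) for Aldoc, Aldoa and the Eno1 and Eno1b pair. For Aldoc the log2 change was larger in Immature than in proBpreB cells, by 2.25, and the Mature effect less the Immature one was -2.15. For Aldoa the Immature effect less the proBpreB one was -0.64, and the Mature effect less the proBpreB one was -1.04. For Eno1 the Mature effect differed from the Immature one by -0.76 and from the proBpreB one by -0.98, and for its near copy Eno1b by -0.87 and -1.13, which is the same result. In Immature cells proliferation genes were lower and erythroid markers higher in flox/flox, and the part of this in these differences was not tested.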

How the results depend on the processing

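Over all comparisons, 3576 of 3660 values of single members kept their direction and their side of the threshold. Of the rest, 44 lost the call, 9 gained it and 31 changed sign, all 31 of which were uncalled in the reported fit. Counts of all genes called stayed within 1.5 times except for Mature cells between genotypes with only the compared groups fitted (1296 against 2096), the difference between Mature and proBpreB cells by DESeq2 (599 against 393), and proBpreB cells between genotypes when 1 library was left out (493 to 889 against 788), where the lowest came without proBpreB flox/WT replicate 4. The causes were not tested. RLE size factors moved the median of all genes by at most 0.042 on the log2 scale.

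With the mouse as a replicate block, genes called were 1559, 1088 and 484 for the differences of Immature against proBpreB, Mature against Immature and Mature against proBpreB, and with the replicate number as a block 898, 2850 and 2301 between genotypes in proBpreB, Immature and Mature cells. These fixed blocks added Pkm to the members called (-0.62) and changed no other call of a member. The limma-voom fit with the mouse as a random block also added Pkm (-0.62) and lost Aldoc in flox/WT Immature against proBpreB cells (0.62, adjusted p = 0.0857).

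The changes of sign were these. For Pgam1 in flox/WT Mature against proBpreB cells, RLE size factors gave -0.012, only the compared groups -0.0047 and DESeq2 -0.013, and leaving out 1 library gave -0.0271 to 0.0906. For Tpi1 in flox/flox Mature against proBpreB cells, the fit with no filter gave 0.00054 and leaving out 1 library -0.0450 to 0.0523. For Gapdh in the difference of Mature against Immature cells, summing Gm12070 gave -0.0301 and leaving out 1 library -0.0250 to 0.19. Leaving out 1 library gave -0.0727 to 0.0739 (flox/WT) and -0.0014 to 0.17 (flox/flox) for Pgk1 and -0.0522 to 0.16 (flox/flox) for Pkm in Mature against proBpreB cells. For the differences, it gave -0.0321 to 0.18 for Gapdh in Immature against proBpreB, -0.10 to 0.0286 for Pgam1 in Mature against Immature, and -0.0306 to 0.26 for Aldoc and -0.0316 to 0.0920 for Pgam1 in Mature against proBpreB cells. The Eno2 share in proBpreB cells moved from -0.0061 to 0.0018 percentage points, at a depth of at most 4 counts per library.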
